A study of Homo sapiens with 10 samples.

Results

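The mitotic G2/M genes are 42 genes whose products drive and carry out cell division. They were taken by symbol from a fixed list, matched through Ensembl identifiers, and all 42 were found among the 20327 genes of the deposited tables. The study measured polyadenylated RNA in hTERT RPE-1, a telomerase-immortalised line of human retinal pigment epithelial origin, wild type in all groups. All cells had been kept for 48 h in 0.1% serum, a treatment used to bring such cells out of the cycle. One experiment compared merbarone, a catalytic inhibitor of topoisomerase II, at 200 µM for 30 min with the vehicle DMSO for 30 min (3 libraries each). In the other, cells given the same dose for 2 h were set against untreated cells, a control labelled with no vehicle (2 libraries in each group). RPE-1 is an established line and both experiments used serum-starved cultures of it, so the levels below describe starved cells only. No serum-fed group was measured, so how far serum withdrawal changed these RNAs cannot be derived. The labels do not say whether the libraries of a group came from separate cultures, so p-values measure the spread between these libraries only, which may be technical.

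Cyclins A and B bind CDK1, the kinase that starts mitosis, and CDC25 phosphatases remove the inhibitory phosphates that WEE1 and PKMYT1 place on it. The spindle checkpoint then holds the anaphase-promoting complex (APC/C) until every kinetochore is attached, after which CDC20 and UBE2C let the complex degrade cyclin B and securin. Many of these genes are transcribed together late in the cell cycle. In resting cells the DREAM complex holds them down, and in cycling cells B-MYB and FOXM1 switch them on through MuvB, whose LIN54 subunit reads the cell cycle genes homology region (core letters TTTGAA), commonly beside CCAAT boxes bound by NF-Y.

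Promoter windows running from 250 bases before to 50 after a gene's start, from RefSeq on build GRCh38.p14, were matched by symbol for 36 of the 42 genes, with 46 starts. The genes not matched were AURKA, BIRC5, BUB3, TTK, UBE2C and TPX2. The letters CCAAT, read on both strands, stood in 67.4% of these 46 windows and in 34.6% of all 35116 windows. TTTGAA stood in 63.0% of them, against 15.2% of all windows, and both stood together in 47.8%, against 5.90%. TTTAAA, which differs from TTTGAA only in the G, stood in 26.1%, against 12.2% of all windows, and is not marked below. Of the 39 TTTGAA matches, 31 lay before the start and 23 of these lay within the last 75 bases before it. Windows of the same gene can overlap, so these are not all distinct sites. In CDC25C and ECT2 the same TTTGAA was counted more than once. A match describes letters and not a bound site. The 150 bases before the start are shown for 4 genes whose RNA fell after 2 h of merbarone (CCNB1, CCNB2, PLK1, CDC20) and 2 that did not pass the test (KIF11, MKI67). They are written 5′ to 3′ on the gene's strand, with both kinds of match in capitals. ATTGG and TTCAAA are the same letters on the other strand.
CCNB1 (chr5:69167000-69167149, plus strand): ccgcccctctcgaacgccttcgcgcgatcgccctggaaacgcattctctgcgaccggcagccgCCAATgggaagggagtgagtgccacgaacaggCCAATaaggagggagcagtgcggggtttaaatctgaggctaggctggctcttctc
CCNB2 (chr15:59104996-59105145, plus strand): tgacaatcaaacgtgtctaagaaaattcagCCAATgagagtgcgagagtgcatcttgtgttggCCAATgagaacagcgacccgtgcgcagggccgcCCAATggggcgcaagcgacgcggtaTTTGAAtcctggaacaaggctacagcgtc
PLK1 (chr16:23678739-23678888, plus strand): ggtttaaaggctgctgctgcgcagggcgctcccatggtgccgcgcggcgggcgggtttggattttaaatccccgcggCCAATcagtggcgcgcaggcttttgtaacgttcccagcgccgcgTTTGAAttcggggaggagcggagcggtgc
CDC20 (chr1:43358831-43358980, plus strand): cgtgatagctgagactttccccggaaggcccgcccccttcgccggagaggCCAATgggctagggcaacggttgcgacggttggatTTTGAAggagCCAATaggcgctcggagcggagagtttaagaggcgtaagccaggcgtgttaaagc
KIF11 (chr10:92592980-92593129, plus strand): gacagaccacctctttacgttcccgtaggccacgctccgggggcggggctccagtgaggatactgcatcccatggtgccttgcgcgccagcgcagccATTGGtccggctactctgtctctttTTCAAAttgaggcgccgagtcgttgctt
MKI67 (chr10:128126424-128126573, minus strand): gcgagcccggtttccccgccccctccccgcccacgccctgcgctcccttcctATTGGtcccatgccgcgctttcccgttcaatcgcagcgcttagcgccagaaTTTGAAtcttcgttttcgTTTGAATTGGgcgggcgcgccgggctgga

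CCNB2 and PLK1 carry TTTGAA at the same distance, 29 bases before the start, with the nearest CCAAT at 54 and 73 bases. CDC20 carries it 65 bases before the start, between CCAAT matches at 100 and 55 bases. CCNB1 has CCAAT at 87 and 55 bases and no TTTGAA in its window, which holds 1 TTTAAA. KIF11 has both strings on the opposite strand, and in MKI67 the TTTGAA at 29 bases runs into the reversed CCAAT next to it. The strings are thus shared by genes that passed the 2 h test and genes that did not.

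RNA of all 42 genes was detected in the starved controls. The deposited unit is RPKM, reads per kilobase of gene and 1000000 reads. For 35 of the 42 genes the length behind the values lay within 1% of the whole gene with its introns, so RPKM understates genes with long introns. Levels of different genes are therefore also given as reads per kilobase of the canonical transcript per 1000000 reads, from read numbers recovered from the steps of the RPKM values. On that per-transcript scale the 42 genes had mean control levels (5 libraries) of 5.41 to 101, with a median of 35.7. These means fell between the 54.5th and the 96.8th percentile of 19356 genes, with a median at the 88.4th. The ranking included genes without reads: of the 20327 genes, 17680 had a value above 0 in some library. Percentiles among expressed genes alone would be lower. Every library held at least 177 reads of each gene.

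On the per-transcript scale PRC1, which bundles microtubules of the central spindle, was highest at 101, followed by CDCA3, a trigger of mitotic entry, at 83.3. ANLN, a scaffold of the contractile ring, measured 72.8, and UBE2C, the ubiquitin-conjugating enzyme of the APC/C, measured 68.1. MAD2L1, the checkpoint protein that captures CDC20, was lowest at 5.41, and CDC25C and the chromokinesin KIF4A followed at 7.31 and 8.92. The ranges over the 5 control libraries did not separate neighbours in this order: PRC1 spanned 62.2 to 127 and CDCA3 spanned 49.1 to 101. MAD2L1 spanned 4.35 to 7.22 and CDC25C spanned 4.66 to 9.18.

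On the RPKM scale the order differed. BUB3, a checkpoint protein that binds kinetochores, was highest with a mean of 30.4 RPKM in the 5 controls, followed by KIF20A at 17.4 and MKI67 at 16.6. KIF20A is a kinesin of the central spindle and MKI67 encodes the surfactant of mitotic chromosomes used as a proliferation marker. The lowest means were 0.288 RPKM for CDC25C, 0.299 for KIF4A and 0.480 for NUF2, a subunit of the kinetochore complex that grips microtubules. Between 4 and 6 genes, depending on the comparison, had a mean below 1 RPKM and were not tested. CDC25C, TTK, NUF2 and KIF4A were below it in every comparison, CENPE in all but the 30 min one, and NDC80 at 2 h.

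**Figure D1:**
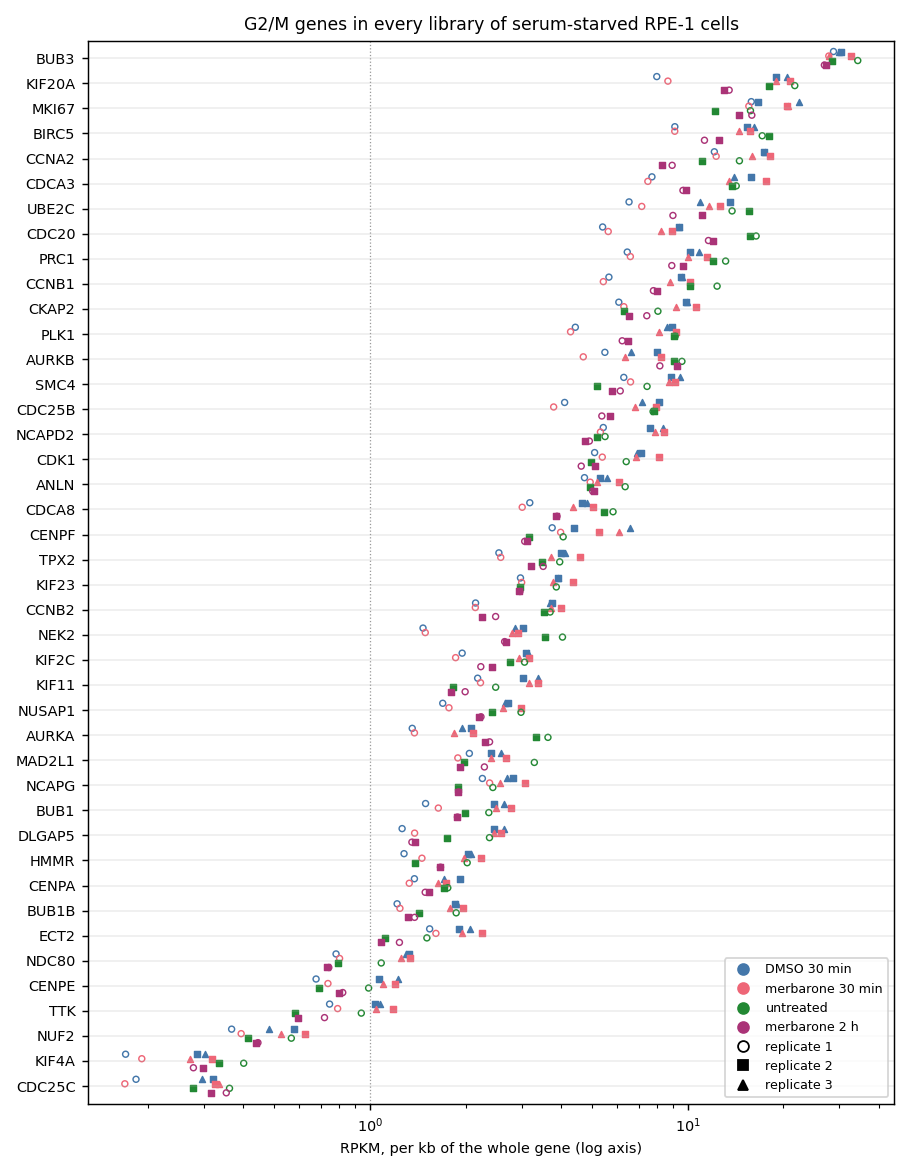
Level of each of the 42 G2/M genes in every library, in RPKM on a log axis, ordered by the mean of the 5 control libraries. Colours mark the 4 groups and symbols the replicate number. The open circles of the 30 min experiment (replicate 1 of DMSO and of merbarone) lie to the left of the filled symbols of their groups for nearly all genes.

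Recovered totals were 26633780 to 38225538 reads in the 30 min experiment and 11956652 to 13691014 in the 2 h experiment. Replicates of a group differed by more than sampling noise, with chi-square statistics of 4.0 to 61.1 per degree of freedom. As a check of the label, 3 of 11 markers of differentiated retinal pigment epithelium (BEST1, PMEL, OTX2) were above 1 RPKM in all 10 libraries. BEST1 and PMEL overlap FTH1 and CDK2 on the other strand and are uncertain. RPE65, the visual cycle isomerase that defines that tissue, was at most 0.0656 RPKM, and TYR was at 0 in 2 libraries. Blood markers summed to at most 0.00758 RPKM and endothelial markers to at most 0.0759.

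Replicate 1 of the 30 min experiment stood apart for these genes, with and without merbarone. In DMSO it was the lowest of 3 libraries for 42 of 42 genes, and its levels were a median of 62.9% of the mean of the other 2. Among all 6558 genes compared it was lowest for 44.3%, and the median ratio was 96.7%. In merbarone 30 min replicate 1 was lowest for 41 of 42 genes, at a median of 64.6%, against 48.0% and 96.9% for all genes. KIF20A was lowest relative to the other libraries, with 7.99 RPKM in DMSO replicate 1 against 19.0 and 20.5. BUB3 was the least affected, with 28.7 against 30.4 and 29.9 RPKM. The ratio of replicate 1 to the others in DMSO ran from 40.4% to 95.2% over the 42 genes. In RNA from whole cultures, fewer dividing cells and less RNA per cell cannot be told apart.

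The untreated libraries also differed: replicate 2 was below replicate 1 for 39 of 42 genes, at a median of 81.8% of it, where replicate 2 was lower for 45.5% of all genes. The exceptions were BIRC5 and UBE2C, at 105% and 113%, and CDC25B at 100.4%. TTK, the checkpoint kinase also called MPS1, was at 61.9% and MAD2L1 at 60.3%. The 2 libraries of merbarone 2 h lay closer together, with replicate 2 lower for 24 genes and replicate 1 for 18. In DMSO the difference between libraries of 1 group was thus as large for many of these genes as the changes at 2 h described below.

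**Figure D2:**
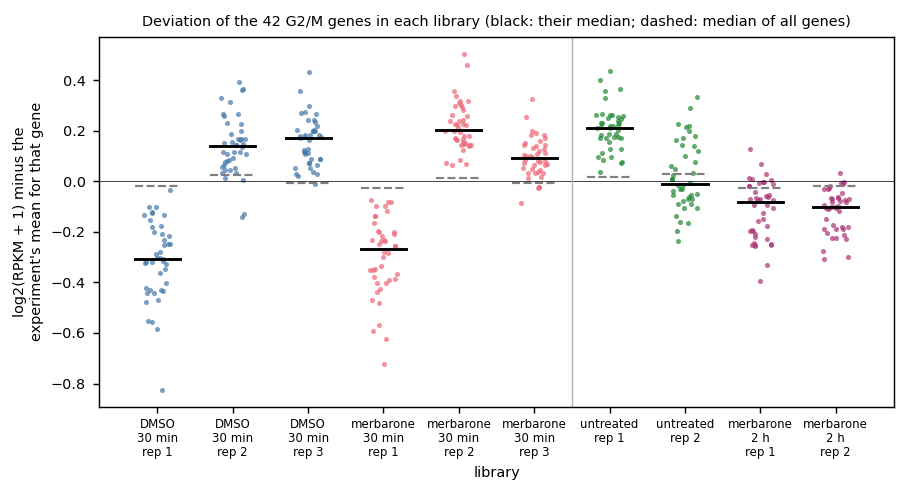
Deviation of each of the 42 genes in each library, as log2(RPKM + 1) minus the gene's mean over its own experiment. Points are genes, black bars their median and dashed bars the median of all genes. The median of the 42 genes is -0.31 in DMSO replicate 1 and -0.27 in merbarone 30 min replicate 1, and all genes stay near 0 in every library.

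The 30 min comparison asked whether these RNAs change soon after the drug. None of the 38 genes tested differed between merbarone and DMSO in limma on log2(RPKM + 1), where genes passed at a Benjamini-Hochberg adjusted p under 0.05 over all genes tested. Of all 6500 genes, 0.0154% passed. The count at an unadjusted p under 0.05 was also 0 of 38, and voom on recovered reads called 0 of 42, where 0.00714% of all genes passed. Log2 fold changes ran from -0.07 for AURKB, the kinase of the chromosomal passenger complex, to 0.08 for CDK1. Their median was 0.01, against -0.01 over all genes, and 22 were above 0 and 16 below. For no tested gene did the 3 merbarone libraries lie wholly above or below the 3 DMSO libraries, where 0.877% of all genes lay wholly above and 1.40% wholly below.

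CCNB1, the main mitotic cyclin, measured 5.65, 9.49 and 9.61 RPKM in DMSO and 5.42, 10.2 and 8.79 RPKM after 30 min of merbarone. PLK1, a kinase of centrosomes and kinetochores, measured 4.43, 8.91 and 8.61 RPKM in DMSO and 4.28, 9.19 and 8.14 RPKM in merbarone. CDC20 measured 5.40, 9.36 and 9.40 RPKM in DMSO and 5.62, 8.93 and 8.25 RPKM in merbarone. In each of these genes the low value of both groups was that of replicate 1, and the groups overlapped throughout. CDK1 measured 5.09, 7.14 and 6.91 RPKM in DMSO and 5.38, 8.14 and 6.89 RPKM in merbarone. MKI67 measured 15.8, 16.7 and 22.5 RPKM in DMSO and 15.6, 20.6 and 20.7 RPKM in merbarone. Its DMSO replicates 1 and 2 lay close together, with replicate 3 above them, and the groups overlapped.

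The fitted changes were -0.02 ± 0.26 (SE) for CCNB1, -0.02 ± 0.33 for PLK1 and -0.06 ± 0.24 for CDC20, all on the log2 scale. CDK1 and MKI67 had 0.08 ± 0.17 and 0.05 ± 0.16. AURKA, a kinase of the spindle poles, had -0.01 ± 0.14, and BUB1, a checkpoint kinase of the kinetochore, 0.05 ± 0.19. CENPF, a kinetochore protein made in G2, had 0.06 ± 0.20, and KIF11, the motor that pushes spindle poles apart, had 0.02 ± 0.16. PRC1 had 0.03 ± 0.24 and SMC4, an ATPase of condensin, 0.00 ± 0.17. Without pairing, the 95% intervals of the 38 changes reached a median of 0.45 to either side, and from 0.19 for BUB3 to 1.06 for KIF20A. For KIF20A the interval ran from -1.02 to 1.10, and with the replicate number as a block it ran from -0.10 to 0.18.

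Same-numbered libraries of this experiment deviated together, so the pairs were also set side by side. In pair 1, 27 of 42 genes were higher in merbarone, with a median change of 0.02 on the log2 scale, and in pair 2, 37 of 42 were higher, with a median of 0.09. In pair 3, 38 of 42 were lower, with a median of -0.07. For these genes the pairs thus moved in different directions. Of all genes, 43.5%, 47.4% and 48.0% were higher in pairs 1, 2 and 3, with medians of -0.010, -0.006 and -0.003. With the replicate number as a block, 0 of 38 genes passed, where 0.123% of all genes did (0.108% higher, 0.0154% lower), and 0 had an unadjusted p under 0.05. Leaving out 1 library moved the median of the set from -0.15 (without DMSO replicate 1) to 0.17 (without merbarone 30 min replicate 1), and 0 genes passed in any of these fits.

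After 2 h of merbarone many of these RNAs were lower than in untreated cells. The untreated control was labelled with no vehicle, so drug and vehicle cannot be told apart in this comparison. Of 36 genes tested in limma, 15 fell and 0 rose (adjusted p under 0.05), where 7.10% of all 6620 genes tested fell and 5.98% rose. The log2 fold changes of the 15 ran from -0.55 to -0.36, and their mean RPKM after merbarone was 65.8% to 73.8% of the untreated mean. Changes were below 0 in 35 of 36 genes (34 with median scaling or quantile normalization), with a median of -0.20 against -0.05 over all genes. Both merbarone libraries lay below both untreated libraries in 24 genes, as in 39.0% of all genes, and wholly above in 0, as in 22.5%. In voom on recovered reads 15 of 42 genes were lower and 0 higher, where 6.09% of all genes were lower and 7.94% higher. The count rests on few libraries. It was 2 without either merbarone library, where 121 of 6594 genes (without replicate 1) and 168 of 6598 (without replicate 2) fell. Without untreated replicate 2 it was 28, where 716 of 6652 genes fell. Without untreated replicate 1 it was 16, of which 15 were lower and 1 (MKI67) higher, where 1571 of 6624 genes fell and 893 rose. With all 10 libraries in 1 fit, which takes in the wider spread of the 30 min libraries, 0 genes passed, with 3 at an unadjusted p under 0.05, where 349 of 6558 genes fell. Without the filter on low RPKM it was also 0, where 5 of 16810 genes fell, with 16 genes at an unadjusted p under 0.05.

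The changes are given by role, and shares were not tested between roles. Among the genes of mitotic entry, 5 of 6 tested fell (CCNA2, CCNB1, CCNB2, CDC25B, CDCA3), with CDK1 the exception. CCNA2, cyclin A, measured 14.5 and 11.1 RPKM untreated and 8.93 and 8.28 RPKM after merbarone. The fitted log2 change was -0.52 ± 0.13 (SE; limma adjusted p 0.0317). CCNB1 (ENSG00000134057; GRCh37 chromosome 5, 68462962 to 68474072, plus strand) measured 12.4 and 10.2 RPKM untreated and 7.80 and 7.99 RPKM treated. Its change was -0.46 ± 0.11 (SE; limma adjusted p 0.0283). CDCA3 measured 14.2 and 13.7 RPKM untreated and 9.66 and 9.84 RPKM treated, a change of -0.48 ± 0.09 (SE; limma adjusted p 0.0139). In all 3 genes both treated values lay below both untreated values. In CCNA2 and CCNB1 the gap between the groups, in RPKM, was no wider than the difference between the untreated replicates, and in CDCA3 it was wider. CDK1, the partner of these cyclins, measured 6.40 and 4.94 RPKM untreated and 4.62 and 5.10 RPKM treated. Its groups overlapped, and its change of -0.18 (95% interval -0.44 to 0.08) did not pass.

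All 3 kinases of centrosome and spindle fell. PLK1 (ENSG00000166851; chromosome 16, 23688977 to 23701688, plus strand) measured 9.12 and 9.08 RPKM untreated and 6.22 and 6.48 RPKM treated, a change of -0.46 ± 0.09 (SE; limma adjusted p 0.0133). AURKA (ENSG00000087586; chromosome 20, 54944445 to 54967393, minus strand) measured 3.63 and 3.34 RPKM untreated and 2.38 and 2.30 RPKM treated. Its change was -0.42 ± 0.08 (SE; limma adjusted p 0.0113). NEK2, which separates the centrosomes, fell by 0.38 on the log2 scale. In the chromosomal passenger complex, which corrects faulty attachments, BIRC5 (survivin) and CDCA8 (borealin) fell. BIRC5 (ENSG00000089685; chromosome 17, 76210267 to 76221717, plus strand) measured 17.1 and 17.9 RPKM untreated and 11.3 and 12.6 RPKM treated, a change of -0.52 ± 0.10 (SE; limma adjusted p 0.0137). Its catalytic partner AURKB did not pass, with 9.58 and 9.07 RPKM untreated and 8.17 and 9.22 RPKM treated.

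Both APC/C partners fell. CDC20 (ENSG00000117399; chromosome 1, 43824652 to 43828874, plus strand) measured 16.4 and 15.6 RPKM untreated and 11.6 and 12.02 RPKM treated. Its change was -0.41 ± 0.10 (SE; limma adjusted p 0.0271). UBE2C measured 13.8 and 15.5 RPKM untreated and 8.98 and 11.1 RPKM treated, a change of -0.51 ± 0.12 (SE; limma adjusted p 0.0272). In the spindle checkpoint, which acts on CDC20, 0 of 4 tested genes passed and 0 had an unadjusted p under 0.05, with all 4 changes below 0 and a median of -0.18. BUB1 measured 2.37 and 1.99 RPKM untreated and 1.89 and 1.88 RPKM treated, with a change of -0.14 (95% interval -0.32 to 0.05). BUB3, at 34.3 and 28.4 RPKM untreated and 26.9 and 27.2 RPKM treated, had a change of -0.20 (interval -0.47 to 0.07).

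Of the kinetochore genes 0 of 2 tested passed, with 0 at an unadjusted p under 0.05. CENPF measured 4.05 and 3.18 RPKM untreated and 3.07 and 3.13 RPKM treated, a change of -0.16 (95% interval -0.40 to 0.07). Among spindle motors and microtubule-binding proteins 1 of 7 fell, DLGAP5 (HURP), which stabilises kinetochore fibres, by 0.36 on the log2 scale. KIF2C, a microtubule depolymerase, had an unadjusted p of 0.0189 and a limma adjusted p of 0.0932, with both treated libraries below both untreated ones. KIF11 measured 2.49 and 1.83 RPKM untreated and 1.99 and 1.80 RPKM treated, with a change of -0.12 (interval -0.35 to 0.11). In KIF11 1 treated value lay between the untreated values and the other just below them.

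Among genes of the central spindle and cytokinesis, 2 of 5 fell, KIF20A and PRC1. KIF20A (ENSG00000112984; chromosome 5, 137514408 to 137523412, plus strand) had the largest change of the 36 genes. It measured 21.7 and 18.0 RPKM untreated and 13.5 and 13.0 RPKM treated, a change of -0.55 ± 0.11 (SE; limma adjusted p 0.0174). PRC1 measured 13.2 and 12 RPKM untreated and 8.91 and 9.66 RPKM treated, a change of -0.40 ± 0.10 (SE; limma adjusted p 0.0328). KIF23, ECT2 and ANLN, which act in the same midzone, did not pass. Condensin and chromosome surface genes gave 0 of 4, with 0 at an unadjusted p under 0.05. SMC4 measured 7.45 and 5.19 RPKM untreated and 6.13 and 5.76 RPKM treated, with a change of -0.06 (95% interval -0.37 to 0.25). MKI67 (ENSG00000148773; chromosome 10, 129894923 to 129924687, minus strand) was the 1 gene with a change above 0, of 0.12 (interval -0.17 to 0.42). It measured 15.7 and 12.2 RPKM untreated and 15.9 and 14.4 RPKM treated, so its groups overlapped.

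**Figure D3:**
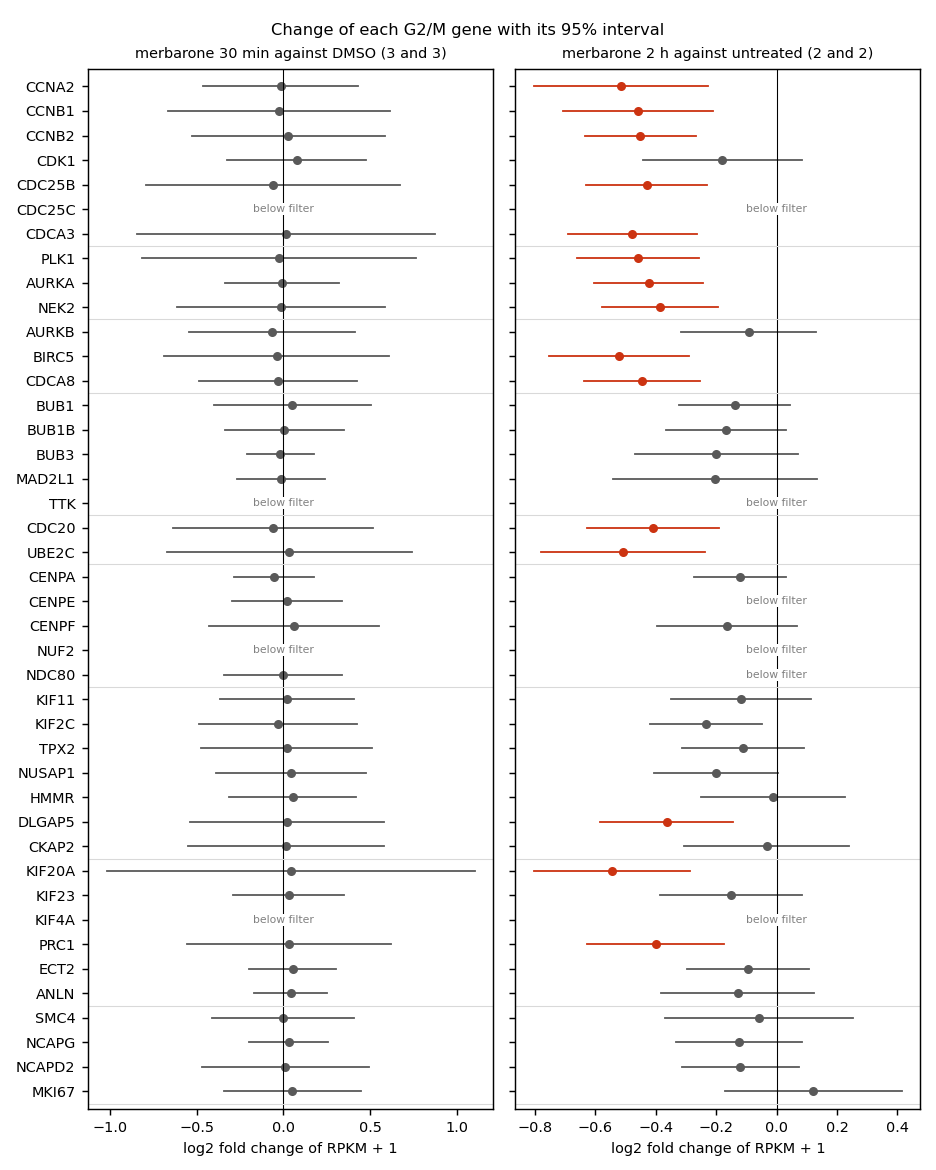
Log2 fold change of RPKM + 1 for each G2/M gene with its 95% interval from limma, at 30 min (left, 3 and 3 libraries) and 2 h (right, 2 and 2 libraries), ordered by role from mitotic entry at the top to condensin at the bottom. Red marks an adjusted p under 0.05 and the axes of the panels differ. At 30 min all intervals hold 0, and at 2 h the 15 red genes lie between -0.55 and -0.36.

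Of the 6 genes not tested at 2 h, CDC25C measured 0.362 and 0.279 RPKM untreated and 0.353 and 0.316 RPKM treated, without a separation of the groups. KIF4A measured 0.401 and 0.336 RPKM untreated and 0.279 and 0.299 RPKM treated. NUF2 measured 0.566 and 0.412 RPKM untreated and 0.444 and 0.438 RPKM treated. Of the 42 genes, 14 overlap another gene of the tables, among them CCNA2, CDCA3, PLK1, KIF20A and SMC4 (a gene on the other strand), and are uncertain, since the sources used here do not state whether reads were counted by strand. Of 5 fibroblast markers the sum was at 3.50 to 5.04 RPKM untreated and 5.86 to 6.21 treated, nearly all of it COL1A1 (3.08 to 4.68 and 5.49 to 5.92). DCN went the other way, at 0.0832 to 0.0883 and 0.0627 to 0.0732 RPKM, and COL1A2 was at 0 in both treated libraries. Keratins summed to 62.0 to 68.4 and 70.3 to 76.0 RPKM, most of it KRT18 (56.9 to 62.0 and 64.2 to 69.4). KRT19 was at most 0.0190 RPKM in any library. KRT8 and KRT18 overlap each other on opposite strands and are uncertain. The part of these markers in the result was not tested.

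The genes that fell shared other properties. Their canonical transcripts were 777 to 3119 bases long, with a median of 2160, and the other 21 tested genes had a median of 3762 and a longest transcript of 12716 (MKI67). Their median GC content was 48.2%, against 41.1% in the others. Their untreated level was a median of 11.3 RPKM, against 3.41, and on the log2(RPKM + 1) scale a given ratio gives a smaller change where RPKM is low. Over the 36 genes, the change at 2 h had a Spearman correlation of 0.62 with the span of the gene, the length behind most of the RPKM values, 0.52 with transcript length and -0.45 with GC content. Over all genes tested, these were 0.23, 0.34 and -0.16, so the direction was not particular to the set. With voom on recovered reads the correlations over the 42 genes were 0.50, 0.44 and -0.38. The genes in these correlations share the same 4 libraries. Of 3633 genes tested with a transcript no longer than 3119 bases, 9.58% fell. Of these 3633 genes, 21 were in the set, whether they fell or not. The limit was the longest transcript of the genes of the set that fell, so all of those lie within it by choice. A part of gene span, transcript length or GC content in the result was not tested. In the promoter windows, CCAAT stood in 12 of the 12 matched genes that fell and in 13 of 19 matched genes that did not pass. TTTGAA stood in 7 of 12 and 15 of 19, and TTTAAA in 5 of 12 and 6 of 19.

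The treatment effects of the experiments were compared in 1 contrast over all 10 libraries, in which time, kind of control and experiment cannot be told apart. Without pairing, 0 of 37 genes passed in limma, 0 had an unadjusted p under 0.05, where 0.366% of all 6558 genes had a lower effect at 2 h and 1.27% a higher one. In voom on recovered reads 0 of 42 passed, against 0.0360% of all genes lower and 0.439% higher. The effect was lower at 2 h than at 30 min in 36 of 37 genes (35 with median scaling, 34 with quantile normalization). The median was -0.20, against -0.04 over all genes. The paired fit changed the count of genes that passed. With the replicate number as a block in the 30 min experiment, where the numbers pair the libraries, 12 genes had a lower effect at 2 h, against 5.44% of all genes, and 0 a higher one, against 4.70%. With the block in both experiments 15 genes did, against 11.5% of all genes, and 0 had a higher one, against 7.69%. At 2 h same-numbered libraries share only a number, so the block there is not shown to pair them. Without both libraries numbered 1 of the 30 min experiment, 1 gene passed (CCNB2, cyclin B2, lower), where 25 of all 6594 genes had a lower effect and 89 a higher one.

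AURKA differed by -0.41 between the experiments, with a limma adjusted p of 0.312 without the block and 0.0096 with the block at 30 min. PLK1 differed by -0.43, with 0.685 and 0.0116, and CDC20 by -0.35, with 0.653 and 0.0472. The size was the same in both fits, and only the spread it was set against differed. For CCNB1, with -0.43, the adjusted p was 0.0528 with the block at 30 min and 0.0293 with the block in both experiments. KIF20A differed by -0.59 and PRC1 by -0.43. CDK1, BUB1, CENPF, KIF11 and SMC4 differed by -0.26, -0.19, -0.23, -0.14 and -0.06 and passed in none of these 3 fits. MKI67 differed by 0.07 and did not pass either.

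The controls of the experiments were compared because both describe starved cells without the drug. In limma 2 of 37 genes were higher in untreated cells than in DMSO, CDC20 and AURKA, and 0 were lower, where 19.8% of all 6544 genes tested were higher and 9.60% lower. In voom on recovered reads 2 of 42 were higher and 0 lower, against 14.3% and 9.83% of all genes. CDC20 measured 5.40, 9.36 and 9.40 RPKM in DMSO and 16.4 and 15.6 RPKM untreated. All untreated values lay above all DMSO values, with a difference of 0.95 ± 0.21 (SE; limma adjusted p 0.0188). AURKA measured 1.36, 2.09 and 1.95 RPKM in DMSO and 3.63 and 3.34 RPKM untreated, a difference of 0.69 ± 0.12 (SE; limma adjusted p 0.00881). Vehicle, experiment and depth cannot be told apart in this comparison. Summed keratin markers were at 16.3 to 21.4 RPKM in DMSO and 62.0 to 68.4 untreated, and their part was not tested. Most of the sum was KRT18 (14.5 to 19.2 and 56.9 to 62.0), which overlaps KRT8 and is uncertain.

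The other genes were spread to both sides of 0 between the controls. Untreated values lay wholly above the DMSO values in 10 genes and wholly below in 2, where 37.6% and 21.3% of all genes did. Genes above 0 numbered 24 of 37, and 17 with median scaling or quantile normalization, so that their majority changed sides. Without scaling the median difference of the 37 genes was 0.07, and that of all genes was also 0.07. With median scaling the calls over all genes went from 1297 higher and 628 lower to 792 and 971. With quantile normalization they were 841 and 928. Under either scaling, 2 of the 37 genes were called higher and 1 lower. Under median scaling 5 of the 37 lay wholly above and 5 wholly below, where 1708 and 1941 of all 6544 genes did. With quantile normalization these were 4 and 5, where 1824 and 1914 of all genes did. Without scaling, CCNB1, PLK1 and PRC1 lay wholly above, with differences of 0.43, 0.33 and 0.45 that did not pass. MKI67 measured 15.8, 16.7 and 22.5 RPKM in DMSO and 15.7 and 12.2 RPKM untreated, wholly below, with a difference of -0.36 and an adjusted p of 0.153. SMC4, CENPF and KIF11 had -0.33, -0.33 and -0.29, and CDK1 and BUB1 had -0.14 and 0.01, none past the threshold. Without DMSO replicate 1, the library low in all 42 genes, 8 genes passed, 2 higher and 6 lower, where 1278 of all 6564 genes were higher and 691 lower. Without DMSO replicate 2 it was 5, all higher, where 1407 of 6516 genes were higher. Leaving out an untreated library leaves 1 in that group, so only the size is given. The median difference was -0.06 without untreated replicate 1, against 0.09 over all genes. It was 0.15 without untreated replicate 2, against 0.06.

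Among the 37 genes this difference had a Spearman correlation of -0.64 with transcript length, -0.59 with gene span and 0.55 with GC content, against -0.31, -0.34 and 0.17 over all genes. The comparison shares its untreated libraries with the 2 h comparison, so a deviation of these libraries enters both with opposite signs. Short transcripts such as CDC20 (1649 bases) and UBE2C (777 bases) were among the highest in untreated cells, and MKI67 (12716) and CENPF (10290) among the lowest.

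**Figure D4:**
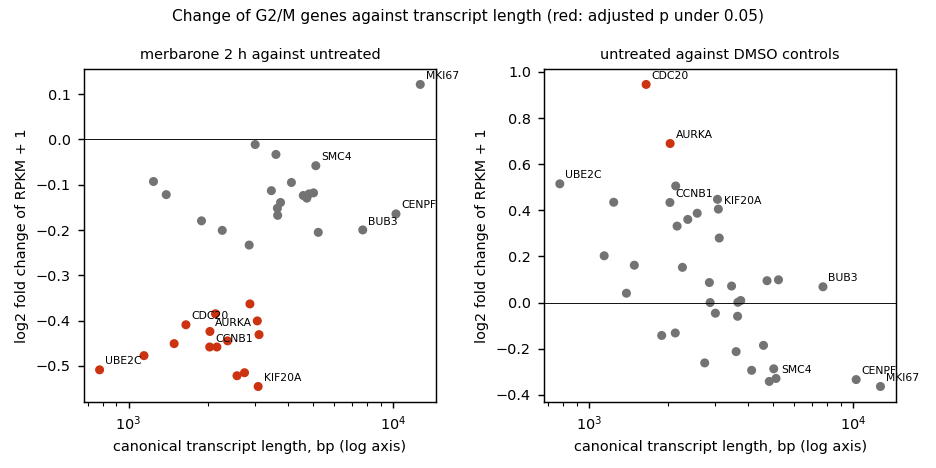
Log2 fold change of RPKM + 1 against the length of the canonical transcript (log axis) for the G2/M genes, at 2 h (left, 36 genes) and between the controls (right, 37 genes). Red marks an adjusted p under 0.05. The panels share the untreated libraries. Genes that fell at 2 h have transcripts of at most 3119 bases.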

How the data were processed

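The authors deposited 1 table of RPKM values per library, per the file headers. The submitters' processing notes name Bowtie 1.2.0, DESeq2, edgeR, deepTools 2.4.1 and hg19/GRCh37, without roles. The counter, annotation and strand setting are not given in the sources used here. Reads were recovered from whole-number steps of the RPKM values, within 0.001 reads, for 17680 genes (100% of those above 0). On simulated data 99.6% of 17374 genes came back exact.

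Tests used limma 3.58.1 (R 4.3.3, lmFit and eBayes with trend) on log2(RPKM + 1), with a mean of at least 1 RPKM, two-sided, fitted on all genes. On simulated reads limma called 200 of 200 changed genes in each comparison, with 9 to 21 unchanged genes. Same-numbered 30 min libraries deviated together (correlations 0.925, 0.646 and 0.605), which pairs them. Members, lists and tests were chosen with earlier results of these data known. Named genes were 11 fixed ones, the 3 highest and 3 lowest by control RPKM, and, among those past the threshold, all when 10 or fewer, otherwise the 5 largest falls and rises. Other genes were named after their values were seen. Alternatives changed the pseudocount (0.1), filter, scaling, trend, libraries, block and test (voom). Positions and transcripts are from GENCODE on GRCh37, and promoters from RefSeq on GRCh38.p14. Python 3.11.15, NumPy 2.4.6, pandas 2.3.3 and matplotlib 3.10.9 were used.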

Additional observations from a re-analysis of the deposited data

How the results depend on the processing

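At 30 min the count of called genes was 0 in every alternative run, with the replicate block included, and the median log2 fold change of the set ranged from -0.15 to 0.17 when 1 library was left out. At 2 h the count of 15 became 0 without the filter on low RPKM, 9 with quantile normalization and 0 with all 10 libraries in 1 fit, and leaving out 1 library gave 2 to 28. The replicate block gave 18 at 2 h, where 1316 of 6620 genes were lower, and 21 with voom, where 1675 of 13440 were. Same-numbered libraries share only a number there, and the fit has 1 residual degree of freedom. The median of -0.20 became -0.41 with a mean of at least 5 RPKM and -0.28 with voom at a mean of at least 1 RPKM, and -0.320 to -0.0880 when 1 library was left out. For the difference of effects the count of 0 became 15 with the replicate block. It was 16 with voom and the block, where 998 of 13900 genes had a lower effect. It was 12 with the replicate block in the 30 min experiment only and 1 without both 30 min libraries numbered 1. The last 2 settings were chosen after seeing the data. For the controls the count of 2 became 1 without the filter, where 1621 of 17118 genes were higher. It was 2 to 8 when 1 DMSO library was left out. With median scaling or quantile normalization 2 genes were higher and 1 lower. The causes were not tested. With 2 libraries a group at 2 h, intervals reached a median of 0.22 on the log2 scale to either side, so smaller changes could be missed. Of the 15 genes that fell at 2 h, all kept a change below 0 in every alternative. Adjusted p-values over these alternatives reached 0.469 (KIF20A).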

Other observations

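Related genes were examined in the same comparisons. Of 62 related genes (regulators of G2/M transcription, brakes of CDK1, APC/C core subunits, other spindle, kinetochore and condensin genes), 47 were tested at 2 h in limma, and 8 were lower and 0 higher at an adjusted p under 0.05, where 7.10% of all genes were lower and 5.98% higher. WEE1, the kinase that restrains CDK1, had the largest of these changes. It measured 4.10 and 3.28 RPKM untreated and 1.92 and 1.69 RPKM after merbarone, a fitted log2 change of -0.74 ± 0.10 (SE; limma adjusted p 0.00243). This brake on CDK1 was thus lower in the same libraries as the cyclins that activate CDK1. FOXM1, the transcription factor that drives many of the 42 genes, measured 17.7 and 16.5 RPKM untreated and 12.2 and 12.8 RPKM treated, a change of -0.42 ± 0.10 (SE; limma adjusted p 0.0266). Of 9 regulators of G2/M transcription tested at 2 h, FOXM1 was the 1 that was lower, and 0 were higher. MYBL2, which encodes B-MYB, measured 1.87 and 1.86 RPKM untreated and 1.70 and 2.04 RPKM treated. FOXM1 and UBE2S, an APC/C enzyme that fell by 0.31, overlap genes on the other strand and are uncertain. PTTG1 (securin), CKS2 (a CDK1 subunit), CCNF (cyclin F), GTSE1 (a microtubule protein of G2) and ANAPC15 (an APC/C subunit) fell by 0.51, 0.55, 0.44, 0.39 and 0.53. Of the core APC/C subunits and UBE2S, 12 were tested and the other 10 did not pass, and of 5 further condensin subunits 0 passed.

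At 30 min 0 of 46 related genes passed in limma, with 1 at an unadjusted p under 0.05, and with the replicate block 0 passed. In the difference of effects 0 of 47 passed without the block. With the block in both experiments, not shown to pair the 2 h libraries, 11 were lower, where 11.5% of all genes were. Between the controls 11 of 47 were higher in untreated cells and 1, CKAP5, lower, where 19.8% of all genes were higher and 9.60% lower. CKS2 measured 3.19, 5.30 and 4.07 RPKM in DMSO and 10.2 and 8.79 RPKM untreated, the largest of these differences.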
